A study of Sus scrofa with 10 samples.

Results

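The transcripts of FGF4, the 4 FGF receptor genes FGFR1, FGFR2, FGFR3 and FGFR4, the feedback inhibitors SPRY2, SPRY4 and DUSP6, and the target transcription factors ETV4 and ETV5 were followed in pig morulae. The members were the rows with these gene names, 10 of 24358 genes and 23 of 47421 isoforms listed, and each name stood on 1 gene row. Matured pig oocytes had been injected with an siRNA against DDB1 (DDB1_KD, 5 libraries) or with a non-specific siRNA (NC, 5 libraries). All were then activated by parthenogenesis, so that both groups developed without a paternal genome, and were grown to the morula, the compacting stage before the blastocyst. Age and strain of the oocyte donors, the number of embryos per library and whether the libraries came from separate cultures are not given in the labels. The p-values thus rest on how much these 5 and 5 libraries vary, which may be technical in part. In bulk RNA of whole embryos, fewer cells of a type and less RNA per cell cannot be told apart.

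Fibroblast growth factors are secreted ligands that, together with heparan sulfate on the cell surface, pair and activate receptor tyrosine kinases of the FGFR family. The receptors pass the signal through the adaptor FRS2 and the RAS-ERK kinase cascade, and active ERK induces its own antagonists of the Sprouty (SPRY) and dual-specificity phosphatase (DUSP) families and the ETS factors ETV4 and ETV5, whose RNA is widely read as a sign of FGF activity. In the mouse blastocyst, FGF4 from the epiblast precursors acts through FGFR1 and FGFR2 on the inner cell mass and trophectoderm, where it directs primitive endoderm formation and maintains trophoblast precursors.

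Libraries held 32466912 to 50911295 estimated counts, with counts for 13522 to 14755 genes, and mitochondrially encoded genes took 8.58% to 24.4% of them, most in DDB1_KD replicate 5. All 9 preimplantation embryo markers, POU5F1, SOX2 and NANOG among them, had a mean of at least 1 FPKM, and none of 9 cumulus and granulosa cell markers did. DDB1 itself was 0.920 to 1.55 FPKM in DDB1_KD and 2.53 to 4.44 FPKM in NC, without overlap. The fitted log2 fold change of DDB1 was -1.39 (SE 0.28). In edgeR's quasi-likelihood test its p was 0.000293 unadjusted and 0.977 after Benjamini-Hochberg adjustment. The adjusted p was 0.0069 in DESeq2's Wald test.

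Among the members, FGFR2 and SPRY4 had the highest levels, DUSP6 differed most between libraries of the 3 genes with a mean of at least 1 FPKM, and FGF4 RNA was nearly undetected. FPKM (fragments per kilobase of transcript, scaled to the mapped total) takes account of length, so that levels of different genes can be set side by side, though only roughly. Gene FPKM was 85.7% to 91.4% of the summed isoform FPKM for FGFR2 and 50.3% to 91.5% for FGFR1, but 100% for SPRY2, DUSP6, ETV4 and ETV5. Averaged over the 10 libraries, the level was 7.32 FPKM for FGFR2, 2.83 for SPRY4, 1.54 for DUSP6, 0.794 for SPRY2, 0.523 for ETV5, 0.474 for FGFR3, 0.361 for FGFR4, 0.179 for ETV4, 0.0629 for FGFR1 and 0.0320 for FGF4. FGFR2 was the highest member in 10 of 10 libraries and SPRY4 the second highest in 9 of 10. Further down, neighbours in the order often traded places: DUSP6 was above SPRY2 in 7 libraries, SPRY2 above ETV5 in 8, ETV5 above FGFR3 in 6, FGFR3 above FGFR4 in 6, FGFR4 above ETV4 in 6 and ETV4 above FGFR1 in 7. The plot of levels by library shows this order.

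**Figure D1:**
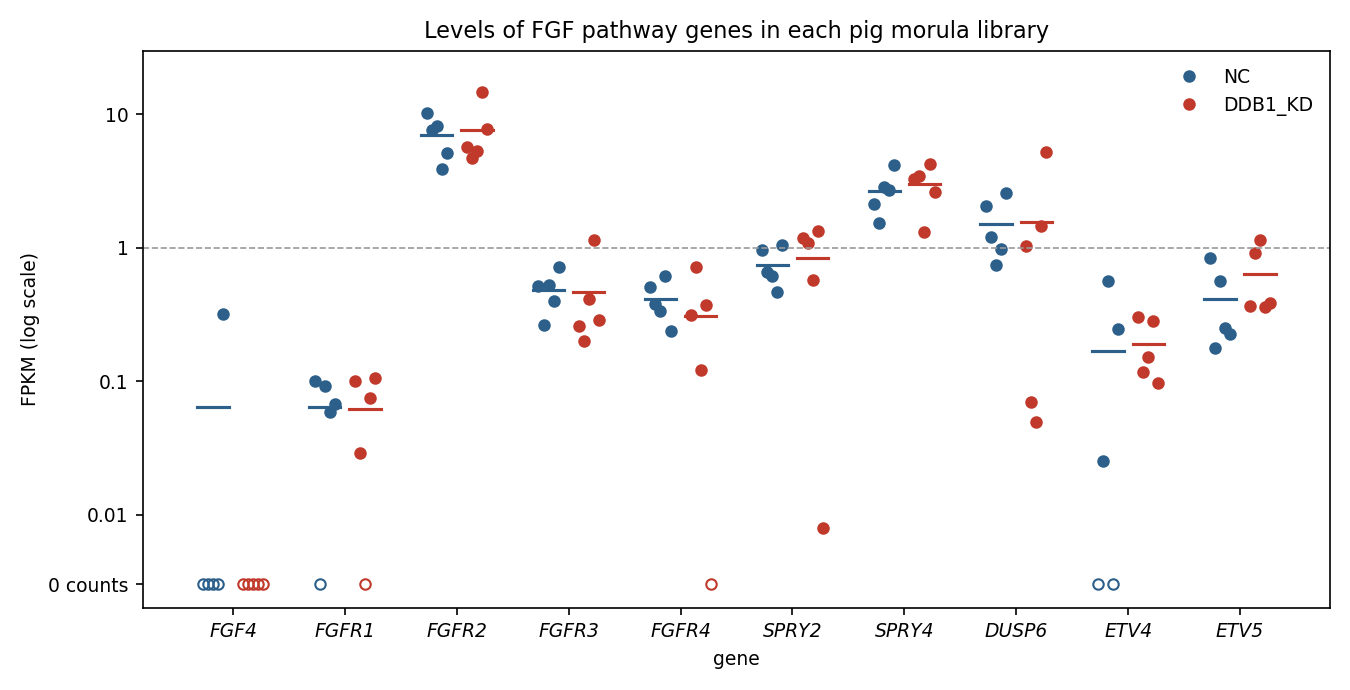
FPKM on a log axis for each member in the 5 NC (blue) and 5 DDB1_KD (red) libraries. Filled points are single libraries, open points are libraries with 0 counts, short lines are group means (not drawn where the mean is 0), and the dashed line is the filter at a mean of 1 FPKM. FGFR2 runs from 3.89 to 14.7 FPKM and is the highest member within each library, and the 2 lowest DUSP6 points and the lowest SPRY2 point are DDB1_KD libraries.

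The comparison of DDB1_KD with NC asked whether injection of the siRNA against DDB1 went with another level of these genes. No member passed edgeR's test. At a mean of at least 1 FPKM, FGFR2, SPRY4 and DUSP6 were tested and 0 of 3 passed, beside 0% of all 8476 genes. Without adjustment, 245 genes (2.89%) and 0 of the 3 members had p under 0.05. limma on log2(FPKM + 1) passed 0 genes (0%), and DESeq2 passed 2 (0.0236%), no member among them. At a mean of at least 0.1 FPKM, 8 members were tested and 0 passed, beside 0% of 13667 genes, and 0 of the 8 had an unadjusted p under 0.05, beside 3.2% of the genes. All 10 members had counts in at least 1 library, but FGFR1 and FGF4 stayed below this limit. The groups overlapped for all 10 members, and they did not overlap for 0.413% of the 8476 genes and 0.395% of the 13667. The fitted value was higher in DDB1_KD for 3 of 3 members at the filter of 1 FPKM (50.0% of all genes) and for 6 of 8 at 0.1 FPKM (49.6% of all genes), but the sign turned for FGFR2, DUSP6, FGFR3, SPRY2 and ETV4 under at least 1 alternative fit or with 1 library left out. The median log2 fold change of the members was 0.13 at the first filter and 0.12 at the second, and that of all genes was 0.00 and -0.005.

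**Figure D2:**
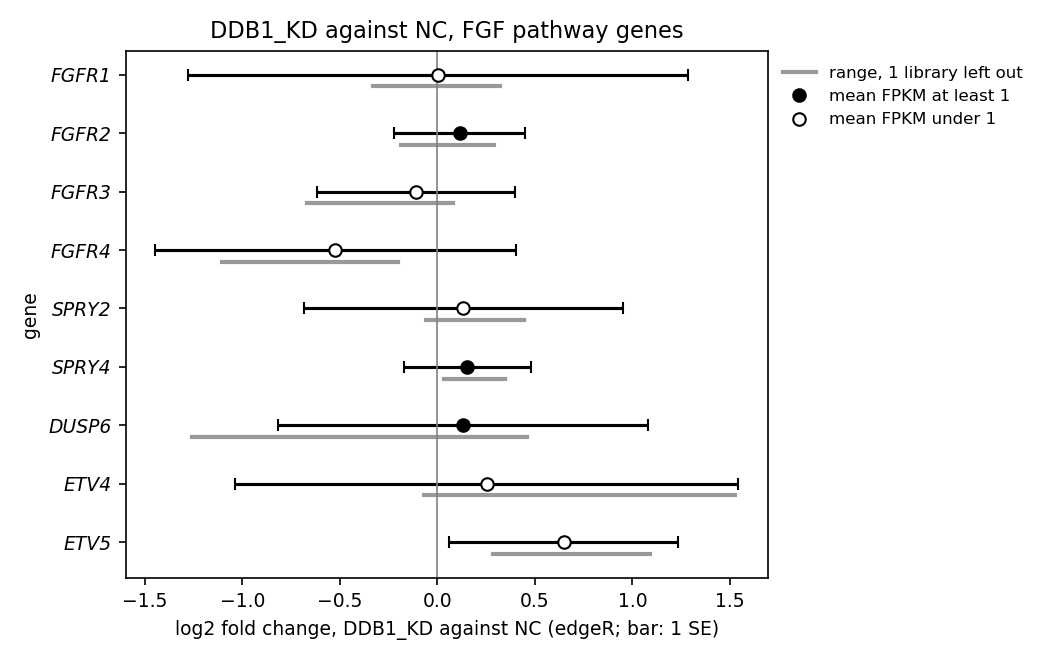
Fitted log2 fold change, DDB1_KD against NC, for the 9 members with a fold (points, with 1 SE as black bars) and the range of that value when each of the 10 libraries was left out in turn (grey lines). Filled points have a mean of at least 1 FPKM; the grey line crosses 0 for FGFR1, FGFR2, FGFR3, SPRY2, DUSP6 and ETV4, and stays on one side for FGFR4, SPRY4 and ETV5.

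FGF4, the ligand of the family made by pluripotent cells of the mouse embryo, was at 0 counts in 9 of 10 libraries. The gene (ENSSSCG00000012870) lies on chromosome 2, 3525321 to 3528873, plus strand of the susScr11 build. NC replicate 5 had 14 counts, or 0.320 FPKM, all of them on the isoform ENSSSCT00000014067 of 3 listed. In the other libraries a count of 0 allows up to 3 counts, which is 0.0645 to 0.101 FPKM at their depths. That limit holds for the listed isoforms, which are short, at 564 to 621 bases. A level under that limit was not detectable, and no fold is given because all 5 DDB1_KD libraries are at 0.

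Other ligands were sparse as well. Of the 20 further FGF genes in the table, 15 had counts, but only FGF2, FGF8, FGF13 and FGF14 had them in all 10 libraries. FGF3, FGF17, FGF18, FGF20 and FGF23 had none. FGF2, a ligand of several receptors, averaged 0.992 FPKM, with 0.864 ± 0.531 in DDB1_KD against 1.12 ± 0.290 in NC (SD, n = 5 each). FGF8 averaged 0.718 FPKM. The FGF genes above 1 FPKM, FGF13 and FGF14, belong to the intracellular FGF homologous factors, which are not secreted and act on sodium channels in neurons.

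FGF13 was the most abundant FGF gene. Its FPKM in DDB1_KD replicates 1 to 5 was 5.48, 2.28, 0.595, 7.10 and 3.81, and in NC 6.91, 6.47, 4.12, 4.63 and 7.26. DDB1_KD replicates 2, 3 and 5 lay below all NC libraries, while replicates 1 and 4 lay within their range. The log2 fold change was -0.63 (SE 0.49). FGF14 averaged 0.809 ± 0.638 FPKM in DDB1_KD against 1.28 ± 1.29 in NC (SD, n = 5 each). Its log2 fold change of -0.65 (SE 0.77) was 0.10 without NC replicate 5. Of the ligand list 2 genes were tested at a mean of at least 1 FPKM, 0 passed, and both had the lower fitted value in DDB1_KD (50.0% of all genes). FGF14 reached that filter through NC, as its DDB1_KD mean was below 1 FPKM. At a mean of at least 0.1 FPKM, 10 of the list were tested and 0 passed, with 4 higher and 6 lower in DDB1_KD.

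FGFR2, a receptor tyrosine kinase carried by trophectoderm and primitive endoderm precursors in the mouse, was the main receptor transcript. It lies on chromosome 14, 131181713 to 131289385, minus strand (ENSSSCG00000010698). Its FPKM in DDB1_KD replicates 1 to 5 was 5.72, 4.74, 5.31, 14.7 and 7.74, and in NC replicates 1 to 5 it was 10.2, 7.62, 8.12, 3.89 and 5.15. DDB1_KD replicate 4 was the highest of all and NC replicate 4 the lowest, and the other libraries of the groups were mixed. DDB1_KD averaged 7.65 ± 4.12 FPKM and NC 6.99 ± 2.49 FPKM (SD, n = 5 each), from 1040 to 2527 counts per library. Fitted, this was a log2 fold change of 0.12 (SE 0.34, adjusted p = 0.980 by edgeR's quasi-likelihood test). It was -0.19 without DDB1_KD replicate 4 and -0.02 without NC replicate 4.

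FGFR2 made up most of the summed FPKM of the 4 receptor genes in every library. Its share was 83.3% to 95.2% in DDB1_KD (89.8% ± 4.26, SD, n = 5) and 78.3% to 92.2% in NC (86.7% ± 5.71, SD, n = 5). The summed level of the 4 receptors had a median of 6.40 FPKM in DDB1_KD (5.68 to 16.3) and of 8.26 FPKM in NC (4.97 to 11.3). FGFR3 held 3.53% to 7.08% of it in DDB1_KD and 3.19% to 11.6% in NC. FGFR4 held 0% to 12.6% and 3.72% to 12.5%. FGFR1 never held more than 1.57%. The makeup of the receptor RNA thus overlapped between the groups for each receptor, and the stacked shares show it library by library.

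**Figure D3:**
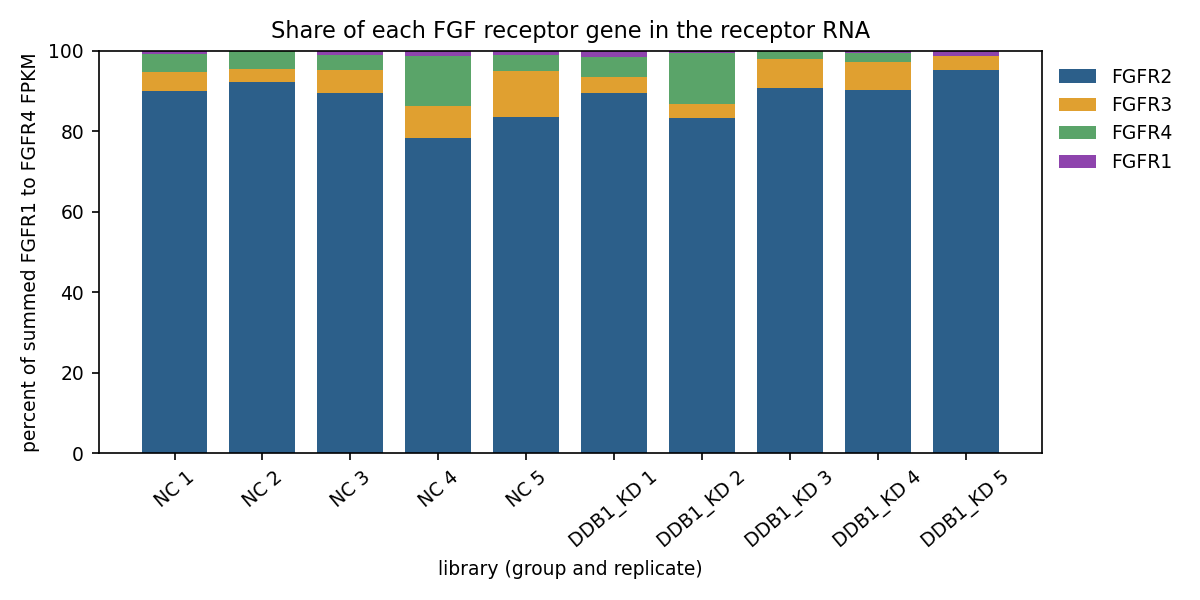
Percent of the summed FGFR1 to FGFR4 FPKM contributed by each receptor gene, 1 bar per library. FGFR2 takes from 78.3% (NC replicate 4) to 95.2% (DDB1_KD replicate 5) of each bar, and the FGFR4 piece is widest in DDB1_KD replicate 2 (12.6%) and NC replicate 4 (12.5%).

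FGFR2 is known to be spliced into forms that bind different ligands in epithelia and in mesenchyme. Which listed isoform encodes which form was not analysed here. Of its 5 listed isoforms, 2 passed the filter of 1 FPKM. ENSSSCT00000036109 (18 exons) had 4.72, 3.33, 1.90, 6.05 and 2.26 FPKM in DDB1_KD replicates 1 to 5 and 4.72, 6.46, 3.83, 3.28 and 3.22 FPKM in NC. ENSSSCT00000033576 (also 18 exons) had 1.05, 0.703, 2.28, 6.45 and 4.59 FPKM in DDB1_KD and 4.79, 0.206, 2.90, 0.271 and 1.28 FPKM in NC. The first ran from 1.90 to 6.46 FPKM over the 10 libraries and the second from 0.206 to 6.45 FPKM, and both overlapped between the groups. ENSSSCT00000033576 was the most abundant isoform in 3 DDB1_KD libraries and 1 NC library, and ENSSSCT00000036109 in the other 2 and 4. Their log2 fold changes were 0.70 (SE 0.92) and -0.27 (SE 0.36), and neither passed edgeR's test over 11250 isoforms. Leaving out DDB1_KD replicate 4 gave 0.31 for ENSSSCT00000033576 and -0.47 for ENSSSCT00000036109. Leaving out NC replicate 1 gave 1.41 for the former, and leaving out NC replicate 2 gave -0.04 for the latter. Of all isoforms tested, 1 (0.00889%) passed, which was not a member's, and 3.36% had an unadjusted p under 0.05.

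The remaining FGFR2 isoforms had a mean under 1 FPKM. ENSSSCT00000033270 had counts in all 10 libraries, at 0.0787 to 1.42 FPKM. ENSSSCT00000035425 had counts in 4 DDB1_KD and 3 NC libraries, at most 3.01 FPKM and 23.8% of the summed isoform FPKM. It was above ENSSSCT00000033576 in DDB1_KD replicate 2 (0.878 FPKM) and NC replicates 2, 4 and 5 (1.39, 0.615 and 1.43 FPKM). ENSSSCT00000011702 had counts in NC replicates 1 and 3 alone, with 77 and 210 counts.

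**Figure D4:**
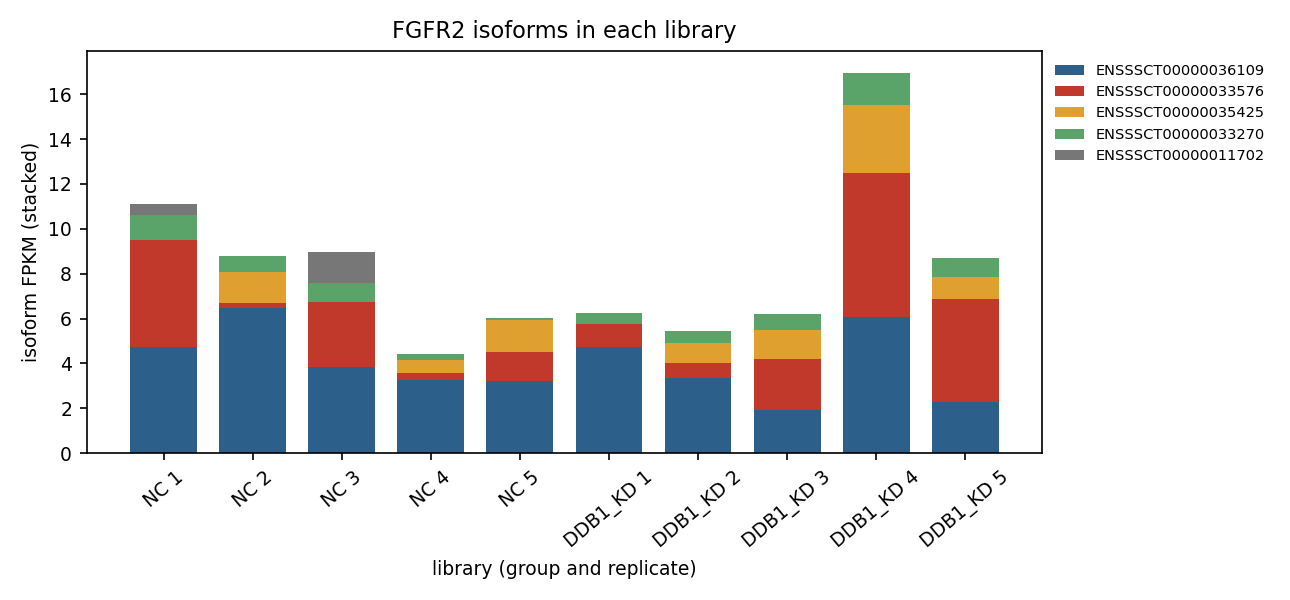
FPKM of the 5 FGFR2 isoforms, stacked, 1 bar per library. The blue piece (ENSSSCT00000036109) is present in every bar at 1.90 to 6.46 FPKM, while the red piece (ENSSSCT00000033576) varies from 0.206 FPKM in NC replicate 2 to 6.45 FPKM in DDB1_KD replicate 4.

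FGFR3, a receptor of the same family, lies on chromosome 8, 879207 to 895912, plus strand (ENSSSCG00000030827). Its FPKM was 0.260, 0.202, 0.414, 1.15 and 0.287 in DDB1_KD replicates 1 to 5 and 0.516, 0.263, 0.530, 0.400 and 0.713 in NC. DDB1_KD replicate 4, which was also highest in FGFR2, stood above all others, and the remaining DDB1_KD libraries lay at or below the middle of NC. Its log2 fold change of -0.11 (SE 0.51) became -0.67 without that library, and was 0.02, 0.08 and 0.04 without DDB1_KD replicate 1, DDB1_KD replicate 2 and NC replicate 5. In all 5 DDB1_KD libraries ENSSSCT00000042500 was the sole FGFR3 isoform with counts (55 to 239). In NC it led in 2 libraries, with ENSSSCT00000050237 leading in 2 and ENSSSCT00000044969 in 1. These shares rest on at most 239 counts per isoform and were not tested.

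FGFR4, the receptor best known for bile acid control in liver, lies on chromosome 2, 80841543 to 80853791, minus strand (ENSSSCG00000014047). Its FPKM was 0.315, 0.719, 0.122, 0.375 and 0 in DDB1_KD replicates 1 to 5 and 0.504, 0.379, 0.337, 0.620 and 0.239 in NC. DDB1_KD held both the highest library (replicate 2) and the lowest (replicate 5, whose 0 counts allow up to 0.0135 FPKM). The means were 0.306 ± 0.275 and 0.416 ± 0.148 FPKM (SD, n = 5 each). With DDB1_KD replicate 2 left out, the log2 fold change of -0.52 (SE 0.92) was -1.10, and with replicate 5 left out it was -0.20. The isoform ENSSSCT00000035375 led in 3 libraries of each group, and ENSSSCT00000036577 in 1 DDB1_KD and 2 NC libraries.

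FGFR1, which in the mouse is carried by all cells of the inner cell mass, was close to the limit of detection here. It lies on chromosome 15, 48053367 to 48106860, plus strand (ENSSSCG00000015815). Counts were 31, 9, 0, 18 and 36 in DDB1_KD replicates 1 to 5 and 25, 0, 22, 22 and 23 in NC. Each group thus had 1 library without counts and none above 36. DDB1_KD averaged 0.0620 ± 0.0461 FPKM and NC 0.0638 ± 0.0396 FPKM (SD, n = 5 each). In the fit without a filter (18578 genes) the log2 fold change was 0.00 (SE 1.28), and -0.33 to 0.32 with 1 library left out.

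Receptor helpers were scarce or moderate. KLB and KL, the Klotho coreceptors needed by the endocrine FGFs, averaged 0.212 and 0.112 FPKM, and the decoy receptor FGFRL1 averaged 0.0509 FPKM. Of 20 genes of coreceptors and heparan sulfate, 7 were tested at a mean of at least 1 FPKM and 0 passed. Of the 7, 6 had the lower fitted value in DDB1_KD (median log2 fold change -0.50, against 0.00 over all genes, 50.0% of which were lower). At a mean of at least 0.1 FPKM, 16 were tested and 0 passed, with 2 higher and 14 lower (49.6% of all genes were higher). EXT1, which with EXT2 polymerizes heparan sulfate, had the smallest p of the 7. Its FPKM was 3.81, 2.95, 2.38, 5.91 and 3.19 in DDB1_KD and 4.42, 4.59, 5.46, 4.05 and 9.99 in NC. DDB1_KD replicate 4 exceeded 4 of the 5 NC libraries, and the other 4 DDB1_KD libraries were below all of NC.

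The log2 fold change of EXT1 was -0.64 (SE 0.31), and -0.38 without NC replicate 5. EXT2 had -0.50 (SE 0.31). SULF2, an enzyme that trims sulfate groups from heparan sulfate, had -0.64 (SE 0.42), and the cell-surface proteoglycan SDC1 had -0.57 (SE 0.46). All 4 had an adjusted p of 0.977 in edgeR's quasi-likelihood test. SULF2, counted among the lower genes, reached the filter of 1 FPKM through NC, with a mean of 0.96 FPKM in DDB1_KD against 1.47 in NC.

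SPRY4, a Sprouty protein that holds back receptor tyrosine kinase signalling to ERK, was the most abundant feedback member. It lies on chromosome 2, 143877340 to 143891285, minus strand (ENSSSCG00000036322). Its FPKM was 3.30, 3.45, 1.31, 4.25 and 2.62 in DDB1_KD replicates 1 to 5 and 2.12, 1.53, 2.87, 2.71 and 4.18 in NC. The lowest and the highest library, replicates 3 and 4, were both DDB1_KD, and the NC libraries filled the span between them. The means were 2.98 ± 1.10 and 2.68 ± 0.993 FPKM (SD, n = 5 each), from 314 to 1130 counts per library. SPRY4 had a log2 fold change of 0.15 (SE 0.32, adjusted p = 0.977 by edgeR), and 0.04 to 0.35 with any 1 library left out. The isoform ENSSSCT00000038649 held at least 99.15% of SPRY4 in every library.

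SPRY2, the other Sprouty member, is a gene of 1 listed exon on chromosome 11, 52154493 to 52155440, minus strand (ENSSSCG00000009482). Its FPKM was 1.19, 1.10, 0.573, 1.33 and 0.00794 in DDB1_KD replicates 1 to 5 and 0.966, 0.654, 0.617, 0.466 and 1.04 in NC. DDB1_KD replicates 1, 2 and 4 were above all NC libraries, and replicate 5 had 1 count. The listed length is short, so that even the highest library held 51 counts. The means were 0.838 ± 0.545 and 0.749 ± 0.245 FPKM (SD, n = 5 each). The log2 fold change of 0.13 (SE 0.82) became 0.45 without DDB1_KD replicate 5 and was -0.06 and -0.04 without DDB1_KD replicates 1 and 4.

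DUSP6, the cytoplasmic phosphatase that removes the activating phosphates from ERK, showed the widest swings of any member tested at 1 FPKM. It lies on chromosome 5, 93303519 to 93309678, plus strand (ENSSSCG00000037910), with 1 isoform of 3 exons. Its FPKM was 1.04, 0.0697, 0.0491, 1.45 and 5.26 in DDB1_KD replicates 1 to 5, from 213, 14, 10, 224 and 1180 counts. In NC it was 2.05, 1.21, 0.740, 0.983 and 2.58, from 340, 247, 119, 237 and 584 counts. DDB1_KD replicates 2 and 3 lay far below, and replicate 5 above, the whole of NC. The highest library had 107 times the level of the lowest, against 3.79 times for FGFR2 and 3.24 times for SPRY4.

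DUSP6 averaged 1.57 ± 2.15 FPKM in DDB1_KD against 1.51 ± 0.775 in NC (SD, n = 5 each), with medians of 1.04 and 1.21 FPKM. The fit gave a log2 fold change of 0.13 (SE 0.95, adjusted p = 0.986 by edgeR). Its sign rests on single libraries: without DDB1_KD replicate 5 it was -1.26, without NC replicate 3 it was -0.04, and without DDB1_KD replicate 3 it was 0.46. On log2(FPKM + 1) limma gave -0.25, and voom with sample weights gave -1.75. The biological coefficient of variation fitted within groups was 98.7% for DUSP6, in the 97.2 percentile of the 8476 genes, whereas FGFR2 (39.6%) and SPRY4 (39.4%) were near the middle. DUSP6 overlaps an unnamed gene on the other strand (ENSSSCG00000035067, mean 0.306 FPKM, at most 89 counts), and the sources used here do not say whether strand was used in counting.

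The libraries with little DUSP6 lay at one end of the order of the trophectoderm, oocyte and primitive endoderm marker sums. The summed FPKM of 8 trophectoderm markers (led by KRT18, DAB2 and KRT8) was 201, 9.33, 57.1, 542 and 239 in DDB1_KD replicates 1 to 5 and 850, 418, 356, 224 and 267 in NC. Most of this sum was KRT18, DAB2 and KRT8, at 168.4, 75.08 and 56.05 FPKM on average. CDX2 averaged 0.0789 FPKM, with at most 16 counts and counts in 6 libraries. Replicates 2 and 3 of DDB1_KD, those with little DUSP6, had the lowest sums, with counts for 5 and 7 of the 8 markers. The summed FPKM of 10 transcripts stored in the oocyte, such as ZP3 and GDF9, was 14.4, 389, 138, 46.3 and 108 in DDB1_KD and 56.4, 81.8, 110, 33.8 and 25.3 in NC. BTG4, at 49.46 FPKM on average, was the largest part of that sum. The same replicates 2 and 3 of DDB1_KD had the highest sums, though replicate 3 (138) was not far above NC replicate 3 (110) and DDB1_KD replicate 5 (108). Primitive endoderm markers summed to 22.6 to 74.2 FPKM in DDB1_KD and 44.1 to 63.5 FPKM in NC, with SOX17 at 0 in all libraries. Most of this sum was GATA6, at 44.85 FPKM on average. Here too DDB1_KD replicates 2 and 3 were lowest (22.6 and 34.1 FPKM). Cumulus and granulosa markers summed to 0.163 to 1.07 and 0.167 to 1.22 FPKM, with CYP11A1, FSHR and AMH at 0. The part of these differences in the DUSP6 values was not tested.

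**Figure D5:**
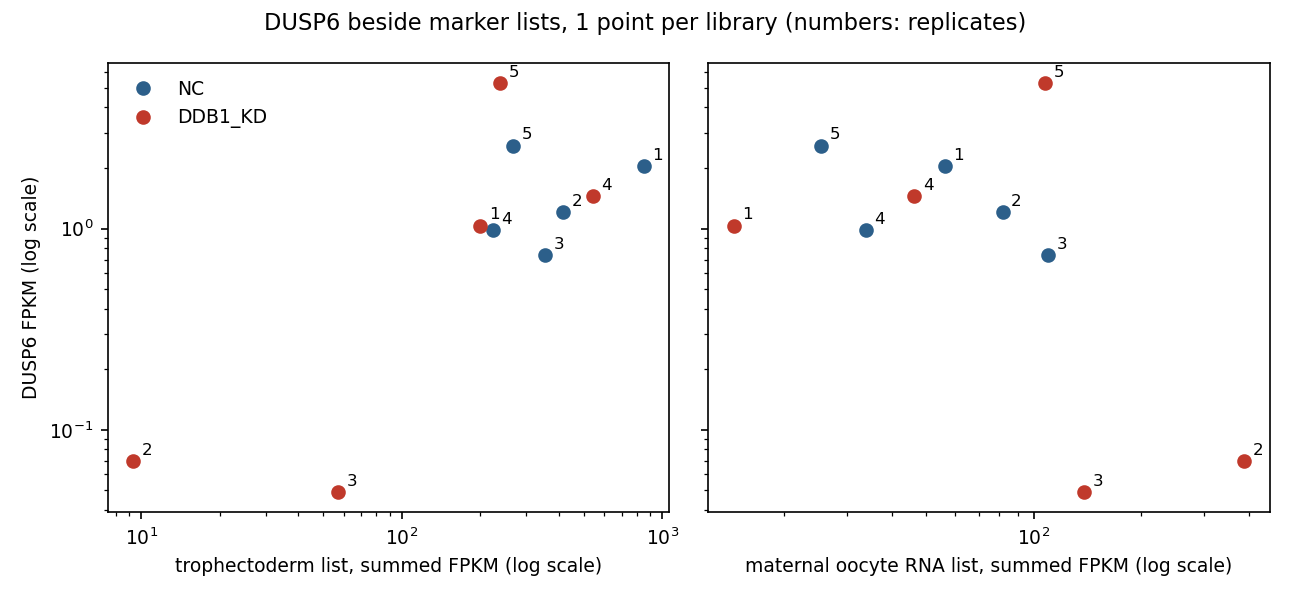
DUSP6 FPKM (log axis) against the summed FPKM of the trophectoderm list (left) and of the oocyte list (right), both on log axes, 1 point per library with its replicate number. DDB1_KD replicates 2 and 3, at 0.0697 and 0.0491 FPKM of DUSP6, have trophectoderm sums of 9.33 and 57.1 and oocyte sums of 389 and 138; the other 8 libraries have 0.740 to 5.26 FPKM of DUSP6.

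Not every feedback gene followed DUSP6. SPRY2 was 1.10 and 0.573 FPKM in DDB1_KD replicates 2 and 3, inside or above the NC range of 0.466 to 1.04. SPRY4 was mixed there. It was 3.45 FPKM in replicate 2, inside its NC range of 1.53 to 4.18, but 1.31 FPKM in replicate 3, below all of NC. In DDB1_KD replicate 5, where DUSP6 was highest (5.26 FPKM), SPRY2 was lowest (0.00794 FPKM). MYC, a growth regulator induced by ERK, was low in the same 2 libraries as DUSP6. Its FPKM was 2.74, 0.194, 0.323, 2.09 and 3.36 in DDB1_KD replicates 1 to 5 and 2.55, 3.80, 2.90, 2.59 and 5.66 in NC, and its log2 fold change was -0.96 (SE 0.68).

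ETV5, an ETS factor induced by FGF signalling, lies on chromosome 13, 123873348 to 123930339, minus strand (ENSSSCG00000023229). Its FPKM was 0.364, 0.918, 1.15, 0.360 and 0.384 in DDB1_KD replicates 1 to 5 and 0.843, 0.178, 0.561, 0.249 and 0.226 in NC. DDB1_KD replicates 2 and 3, which had the least DUSP6, had the most ETV5, and the other DDB1_KD libraries lay inside the NC range. The means were 0.634 ± 0.372 and 0.411 ± 0.285 FPKM (SD, n = 5 each). The log2 fold change of 0.65 (SE 0.59) had the largest size among the 8 members with a mean of at least 0.1 FPKM and did not pass (adjusted p = 0.996 by edgeR over 13667 genes). It was 0.28 without DDB1_KD replicate 3 and 1.09 without NC replicate 1.

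ETV4, the related factor, lies on chromosome 12, 19531603 to 19548300, plus strand (ENSSSCG00000017379). Its FPKM was 0.301, 0.118, 0.151, 0.283 and 0.0965 in DDB1_KD replicates 1 to 5 and 0, 0.0250, 0.566, 0 and 0.245 in NC. All 5 DDB1_KD libraries had 11 to 32 counts, while NC had 0 in replicates 1 and 4, 3 in replicate 2, and 46 and 28 in replicates 3 and 5. The groups therefore overlapped, with NC the more uneven. The means were 0.190 ± 0.0954 and 0.167 ± 0.246 FPKM (SD, n = 5 each), and the log2 fold change of 0.25 (SE 1.29) became 1.53 when NC replicate 3 was left out. It was -0.02 when DDB1_KD replicate 1 was left out, and -0.06, -0.01 and -0.07 for NC replicates 1, 2 and 4.

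Between receptor and feedback genes lie the adaptors and kinases of the cascade. All 27 listed genes had counts, and 23 had them in all 10 libraries. MAPK3 averaged 0.0738 FPKM, with at most 38 counts. At a mean of at least 1 FPKM, 20 were tested and 0 passed. By the fitted value 12 were higher and 8 lower (median log2 fold change 0.05), and 50.0% of all genes were higher (median 0.00). At a mean of at least 0.1 FPKM, 24 were tested and 0 passed, with 15 higher and 9 lower (49.6% of all genes were higher). PTPN11, which encodes the phosphatase SHP2 that links FRS2 to RAS, averaged 7.89 ± 1.88 FPKM in DDB1_KD against 10.2 ± 0.611 in NC (SD, n = 5 each), a log2 fold change of -0.38 (SE 0.19).

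FRS2, the docking adaptor of the FGF receptors, had a log2 fold change of 0.43 (SE 0.31). In DDB1_KD replicates 1 to 5 its FPKM was 2.57, 3.56, 1.75, 2.77 and 3.25, and in NC 0.955, 2.05, 2.17, 2.70 and 2.42. DDB1_KD replicates 2, 4 and 5 were above all of NC and replicates 1 and 3 were not. HRAS, with at most 170 counts, had -1.11 (SE 0.62). It reached the filter of 1 FPKM through NC, with a mean of 0.823 FPKM in DDB1_KD against 1.75 in NC.

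Of 28 other feedback regulators and ERK response genes, 12 were tested at a mean of at least 1 FPKM and 0 passed. By the fitted value 4 were higher and 8 lower (median log2 fold change -0.25), and 50.0% of all genes were lower (median 0.00). ELK3, among the higher ones, reached that filter through DDB1_KD, with a mean of 1.87 FPKM there against 0.985 in NC. At a mean of at least 0.1 FPKM, 21 of the list were tested and 0 passed, with 10 higher and 11 lower (median -0.06). FOS and DUSP1, early genes induced by ERK and by stress, were the most abundant of the list, at 38.1 and 37.3 FPKM on average. PHLDA1, an ERK-induced protein, was the 1 gene of the 12 with an unadjusted p under 0.05 in edgeR's test, beside 2.89% of all 8476 genes. Its FPKM was 1.52, 1.03, 2.70, 2.54 and 0.369 in DDB1_KD and 3.56, 1.33, 2.20, 5.08 and 8.76 in NC. NC replicates 1, 4 and 5 were above all DDB1_KD libraries, and NC replicates 2 and 3 lay among them. PHLDA1 had a log2 fold change of -1.34 (SE 0.60, adjusted p = 0.977 by edgeR), and -0.93 without NC replicate 5. SPRED1, a Sprouty-related inhibitor, had 0.38 (SE 0.26), and the AP-1 subunit JUN had -0.63 (SE 0.42).

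The genes whose log2 expression most resembled that of the 3 members above 1 FPKM were picked as the highest of 8475 correlations over the 10 libraries, which share depth and embryo stage, and are a description. For FGFR2 these were the amino acid transporter SLC7A8 (Pearson's r 0.905, Spearman's rho 0.903) and ZNF462 (0.869 and 0.867). For SPRY4 they were the mitotic kinase PLK1 (0.947 and 0.976) and TMEM39B (0.946 and 0.927). For DUSP6 they were ATRN (0.948 and 0.867) and TUBGCP3 (0.947 and 0.915).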

How the data were processed

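The 10 RNA libraries were made from fragmented cDNA and read from both ends (Illumina), per the labels' protocols. The submitters' processing notes name fastp, HISAT2, StringTie, edgeR, HOMER and ChIPseeker and the build susScr11, without version or role. The authors deposited FPKM and estimated counts per gene and isoform. Whole numbers fill the deposited count columns, and isoform counts equal FPKM times length times 1 constant (within 1.5 counts plus 0.5%), so their error may not be that of read counts; floors and limits cover counting error only. Gene counts are sums over isoforms, while gene FPKM is for some members below the isoform sum. Deposited FPKM of 0.0001 at a count of 0 was read as 0. Symbols came from the table for 17451 genes, Ensembl names for 951 and RefSeq names (Sscrofa11.1) for 719, and 5237 kept an identifier.

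edgeR 4.0.16 (glmQLFit, glmQLFTest, TMM, group alone, R 4.3.3) was run on the deposited estimated counts of the 8476 genes, or 11250 isoforms, whose mean FPKM was at least 1. Members under that mean were read from fits at a mean of at least 0.1, or without a filter for FGFR1. P-values were adjusted by Benjamini-Hochberg over all genes in the fit, at 0.05. limma 3.58.1 (pseudocounts 1 and 0.1) and DESeq2 1.42.0 were alternatives, with other scaling, filters, weights, the replicate number as a block and each library left out. The fits were tested on simulated data. Python 3.11.15, pandas 2.3.3 and matplotlib 3.10.9 were used. Likeness was computed on TMM-scaled log2 CPM with a prior count of 2. Beside all members and DDB1, the 4 tested genes of each pathway list with the smallest p are named, except that some genes of the lists are not reported here, and other list genes were named after their values were seen. Members and lists were chosen with earlier results of these data known. The names FGF7, HAS2, NLRP5 and H1-8 did not match a row of the table. No sequences are shown, since none was in the files used here.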

Additional observations from a re-analysis of the deposited data

Results flagged for a closer look

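In 3 of 21 groups of 5 values, the highest library stood apart by a gap of over 0.71 of the group's whole range. That limit is passed in about 5% of groups of normally distributed values. FPKM need not be so distributed, and the rate for such values was not determined. FGF4 was 0.320 FPKM in NC replicate 5 and 0 in the other 4 NC libraries, so the gap is the whole range and rests on 14 counts. FGFR3 was 1.15 FPKM in DDB1_KD replicate 4, with the other 4 DDB1_KD libraries at 0.202 to 0.414 FPKM (gap 0.776 of the range). DUSP6, the ERK phosphatase, was 5.26 FPKM in DDB1_KD replicate 5, with the others at 0.0491 to 1.45 FPKM (gap 0.731 of the range).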

How the results depend on the processing

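No member passed under any alternative run. Genes passing over the whole table were 0 in the reported fit and with any library left out, and 2 by DESeq2. Isoforms passing were 1 in the reported fit, 0 at a mean FPKM of at least 0.1 or without a filter, 68 by DESeq2, 2 by limma on log2(FPKM + 0.1), and 0 to 2 with 1 library left out. The log2 fold changes of FGFR4, SPRY4 and ETV5 kept their sign under every alternative that could be fitted, with FGFR4 at -1.692 by voom with sample weights; there ETV4 was 2.45 and FGFR3 -0.326. That of FGFR1 was -0.025 with total-count scaling, -0.003 and -0.028 by limma on log2(FPKM + 1) and log2(FPKM + 0.1), -0.373 by voom with sample weights and -0.33 to 0.32 with 1 library left out. FGFR2 was -0.065 by voom and -0.187 to 0.29 with 1 library left out. SPRY2 was -0.245 by limma on log2(FPKM + 0.1), -0.392 by voom and -0.059 to 0.446 with 1 library left out. DUSP6 was -0.249 and -0.969 by limma with pseudocounts 1 and 0.1 (the same for its isoform), -1.746 by voom and -1.256 to 0.458 with 1 library left out (-1.26 to 0.446 for its isoform). With 1 library left out, FGFR3 ran from -0.666 to 0.08, ETV4 from -0.068 to 1.525 and FGF14 from -1.089 to 0.095. The causes of these reversals were not tested. DDB1 passed DESeq2's test as a gene and as an isoform.

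With the replicate number as a block, SPRY2 was -0.144, DUSP6 -1.316 and its isoform -1.377, ETV4 moved from 0.253 to 1.935, FGFR4 from -0.523 to -1.254, FGFR3 from -0.11 to -0.328, FGFR1 from 0.003 to 0.218 and the FGFR2 isoform ENSSSCT00000033576 from 0.696 to 1.16, and 0 isoforms passed. The labels do not say that a number marks a shared source. Deviations of same-numbered libraries correlated by -0.142 to 0.354 and 2 of 10 libraries correlated best with their own number, so the numbers were not treated as pairs. FGFR1, FGF4, ETV4 and SPRY2 had at most 51 counts in any library, so their values rest on few counts.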
